A study of Mus musculus with 11 samples.

Results

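The Ugt1a cluster encodes the UDP-glucuronosyltransferases that attach glucuronic acid to bilirubin, hormones and drugs, and Mroh2a, a gene of the maestro heat-like repeat family, lies directly after it on mouse chromosome 1. The captured, methylated DNA of this stretch was described in mouse liver by 500 bp bins of an MBD-seq table, that is, a count of fragments bound by a methyl-CpG-binding domain. Members were all bins of the table in a 250 kb interval of chromosome 1 (mm10 build) that starts before Ugt1a10, the first gene of the cluster, and ends inside Trpm8. The first member began at 88088001 and the last ended at 88287500. They were 121 of the 466039 bins tested. Ugt1a10 lies at chr1:88055388-88219004, Ugt1a1 at chr1:88211959-88218997 and Mroh2a at chr1:88226986-88262289, all on the plus strand. The interval was chosen by the difference between the strains in these same libraries, so the strain values of its bins are a description. Counts of its bins past a threshold are given beside the share of all bins, and nothing is read from them. The age comparisons were tested in a fit over all bins of the table.

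The libraries came from livers of 2 inbred strains, DBA/2J and C57BL/6J. The DBA/2J group held 2 young females of 108 days, a mid class of 2 females of 341 days and 1 male of 345 days, and 1 old female of 708 days. The C57BL/6J group held 2 young females of 107 days, 1 mid male of 308 days and 2 old females of 711 days. The labels name no transgene, mutation or treatment in any group. They do not say that each library is a separate animal, so p-values refer to the spread between libraries, which may be technical.

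Each Ugt1a enzyme is made from its own promoter and first exon, spliced to exons that all members share at the end of the cluster. Ugt1a1, the last first exon before the shared exons, encodes the enzyme that conjugates bilirubin in liver. Dnajb3, a small intronless cochaperone gene, lies inside the cluster on the opposite strand. After Mroh2a come Hjurp, the chaperone that places the histone variant CENP-A at centromeres, and Trpm8, the cold-sensing ion channel. Capture by a methyl-CpG-binding domain grows with the number of methylated CpGs in a fragment and with the number of copies of the DNA. No uncaptured input was analysed here, so methylation and DNA copies cannot be told apart in any value below, nor can methylation in a mixture of liver cells be assigned to a cell type.

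The DNA in which the largest strain differences and the clearest exceptions were measured is printed from the RefSeq assembly GRCm38.p6, plus strand, with each CpG in capitals. The first stretch is the 300 bases before the start of Ugt1a1 (chr1:88211659-88211958, 3 CpGs), shown because the bin over that start had the largest strain difference of the Ugt1a1 bins.
Ugt1a1 upstream: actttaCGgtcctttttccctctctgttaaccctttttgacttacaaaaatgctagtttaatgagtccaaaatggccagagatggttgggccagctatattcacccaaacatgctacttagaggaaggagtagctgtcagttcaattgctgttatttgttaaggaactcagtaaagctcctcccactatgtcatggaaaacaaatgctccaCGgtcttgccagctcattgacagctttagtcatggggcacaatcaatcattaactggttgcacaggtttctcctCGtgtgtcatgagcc
The next stretch is the beginning of the coding sequence of the Ugt1a1 first exon (chr1:88212002-88212301, 7 CpGs).
Ugt1a1 exon 1 coding: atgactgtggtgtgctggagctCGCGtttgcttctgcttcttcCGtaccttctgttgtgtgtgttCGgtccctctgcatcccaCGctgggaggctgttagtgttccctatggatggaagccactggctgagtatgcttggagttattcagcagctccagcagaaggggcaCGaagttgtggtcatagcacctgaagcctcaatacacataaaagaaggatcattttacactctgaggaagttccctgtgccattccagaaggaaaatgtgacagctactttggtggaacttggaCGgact
The Dnajb3 coding stretch (chr1:88205201-88205500, 28 CpGs) lies in a bin with 37 CpGs, next to the densest bin of the interval (41 CpGs). In the bin of the printed stretch the strains were close.
Dnajb3 coding: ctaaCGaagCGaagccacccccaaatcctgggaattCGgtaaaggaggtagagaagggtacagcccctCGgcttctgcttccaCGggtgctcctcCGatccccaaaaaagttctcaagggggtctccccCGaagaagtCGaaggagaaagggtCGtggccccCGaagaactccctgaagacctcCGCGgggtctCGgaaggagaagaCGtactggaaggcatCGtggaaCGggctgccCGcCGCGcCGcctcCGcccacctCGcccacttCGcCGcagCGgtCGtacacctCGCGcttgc
A Mroh2a intron stretch (chr1:88253001-88253300, 9 CpGs) and a stretch at the edge of a Mroh2a coding exon (chr1:88230056-88230355, 5 CpGs) lie in the bins with the smallest p of that gene, the latter among bins that touch a coding exon. Of the latter 14 of the 300 bases are coding and the rest intron.
Mroh2a intron: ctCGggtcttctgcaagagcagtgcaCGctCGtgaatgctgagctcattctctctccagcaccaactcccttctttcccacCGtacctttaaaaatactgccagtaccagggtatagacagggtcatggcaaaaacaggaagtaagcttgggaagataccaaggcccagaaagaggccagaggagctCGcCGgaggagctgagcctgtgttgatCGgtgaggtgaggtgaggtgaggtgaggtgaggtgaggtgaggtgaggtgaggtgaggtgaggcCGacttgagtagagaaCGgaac
Mroh2a exon edge: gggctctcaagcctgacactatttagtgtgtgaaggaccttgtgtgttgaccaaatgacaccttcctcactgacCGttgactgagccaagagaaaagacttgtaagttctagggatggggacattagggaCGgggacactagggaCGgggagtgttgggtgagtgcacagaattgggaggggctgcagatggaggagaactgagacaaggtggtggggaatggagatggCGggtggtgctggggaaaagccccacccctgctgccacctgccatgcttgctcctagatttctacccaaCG
The corresponding stretch of Hjurp (chr1:88269144-88269443, 7 CpGs) completes the set, with 93 coding bases.
Hjurp exon edge: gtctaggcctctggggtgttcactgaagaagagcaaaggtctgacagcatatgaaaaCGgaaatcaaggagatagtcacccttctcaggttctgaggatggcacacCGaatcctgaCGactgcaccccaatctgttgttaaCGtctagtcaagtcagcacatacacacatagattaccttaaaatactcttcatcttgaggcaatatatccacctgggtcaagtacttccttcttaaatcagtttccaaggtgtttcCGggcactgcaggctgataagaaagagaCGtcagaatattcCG
The Dnajb3 and Ugt1a1 stretches differ most in CpG number, 28 against 3 in the same 300 bases.

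The 11 libraries held 6.89 to 8.54 M reads in the table, the median bin having 15 reads, and a library had 2418 to 5134 reads over the 121 members. The library C57BL/6J young 2 stood apart. Bins with more than 20 CpGs had a mean count 1.21 times that of all bins in it, against 1.46 to 2.16 times in the other 10 libraries, and bins with up to 6 CpGs had 0.814 times, against 0.695 to 0.807. That library captured less of the CpG-dense DNA and more of the CpG-poor DNA. Its values are given apart wherever they decide a result. To set bins of different CpG number side by side, a relative level was also computed, the count of a bin divided by the median count of all bins with as many CpGs in the same library. From 21 CpGs upward bins were pooled into wider classes. A relative level of 1 is then the middle of the bins in the table. These had at least 40 reads over all libraries, so 1 is not the level of ordinary DNA.

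Bins with enough captured reads to be in the table began at Ugt1a1. The table holds bins with at least 3 CpGs and at least 40 reads over all libraries. Before 88210001, over the Ugt1a first exons other than Ugt1a1, only 5 of 152 steps of 500 bp with at least 3 CpGs were in the table (3.29%). From there to the end of the interval 116 of 134 were (86.6%). Over chromosome 1 the share was 13.6%, and in the 250 kb before the interval it was 14.9%. Between the first exon of Ugt1a8 and Dnajb3, 0 of 113 such steps were in the table. That stretch holds the first exons of Ugt1a7c, Ugt1a6b, Ugt1a6a, Ugt1a5 and Ugt1a2, so no strain or age value can be given for them here. The nearest members to the starts of Ugt1a10, Ugt1a9, Ugt1a7c, Ugt1a6b, Ugt1a6a, Ugt1a5 and Ugt1a2 lay 32590, 17201, 6064, 14252, 45809, 38489 and 3900 bp away. A step missing from the table had few captured reads, and whether it was unmethylated, hard to map or both was not tested.

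From Ugt1a1 to the end of the interval the captured level was higher in C57BL/6J than in DBA/2J. It was high in C57BL/6J from Ugt1a1 onward and in DBA/2J from Mroh2a onward, while DBA/2J had a relative level near 1 over Ugt1a1 itself. Over all members the median relative level was 2.31 ± 0.402 in C57BL/6J (SD, n = 5, range 2.00 to 3.00) and 1.47 ± 0.161 in DBA/2J (SD, n = 6, range 1.26 to 1.71). The strains did not overlap. C57BL/6J young 2 was the highest C57BL/6J library, and the next stood at 2.31. In windows of 10 kb the relative level rose from 1.81 in C57BL/6J and 0.975 in DBA/2J at Ugt1a1 to 3.04 and 2.18 inside Mroh2a. It was 2.28 and 1.20 in the next window and 2.68 and 1.82 at the end of the interval. In the 3 windows beyond it the levels were 2.66 and 2.35 (3 bins), 1.72 and 1.25, and 1.17 and 0.933, so the high level reached past the interval and the DBA/2J level was highest just after it. The 80 kb from 88210001 held 116 bins of the table, and only 9 of 27071 windows of 80 kb, itself included, held as many. Among the 9064 windows with at least 20 bins, 7 had a C57BL/6J relative level as high as its 2.30 and 35 a DBA/2J level as high as its 1.44, each count with the window itself. Over those windows the medians were 1.01 and 1.02. The window was placed inside an interval chosen by its strain difference in these same libraries, so these ranks are a description.

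**Figure D1:**
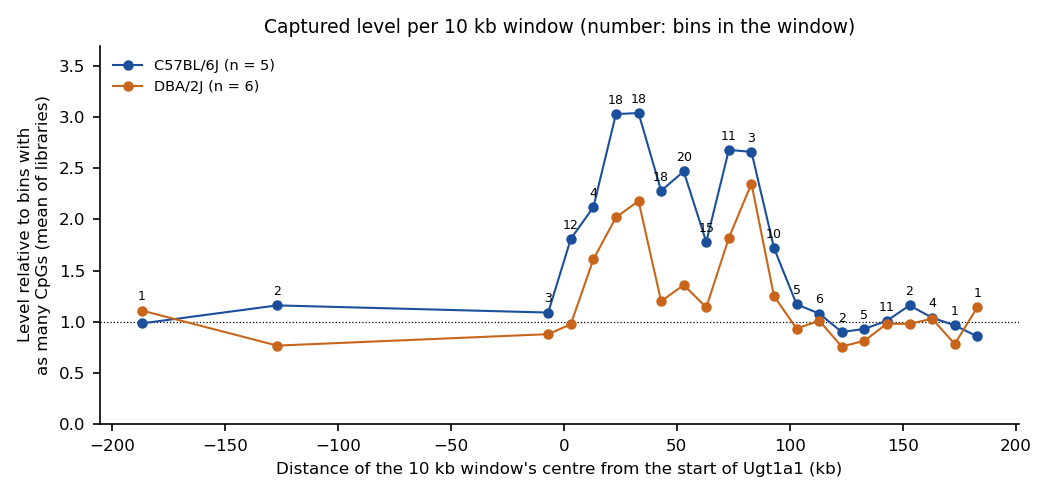
Mean relative level of the C57BL/6J (n = 5) and DBA/2J (n = 6) libraries in windows of 10 kb, plotted against the distance of the window's centre from the start of Ugt1a1 in kb, with the number of bins at each point and a dotted line at 1. Both strains lie above 1 over Mroh2a, Hjurp and the first part of Trpm8, with C57BL/6J above DBA/2J from Ugt1a1 to the end of the interval, and both return to about 1 farther beyond it.

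The sum over the 121 members, as TMM-scaled CPM, the count relative to the size of the library, was 331 in the lowest DBA/2J library, 404 in the highest, and 369 ± 29.7 on average (SD, n = 6). The C57BL/6J sums were 522 and 705 in the young, 518 in the mid and 560 and 512 in the old libraries, 563 ± 81.5 on average (SD, n = 5). No DBA/2J library reached the lowest C57BL/6J library, and C57BL/6J young 2 was highest by far. The C57BL/6J mean was 1.53 times the DBA/2J mean, or 1.43 times without C57BL/6J young 2. As a log2 difference, DBA/2J minus C57BL/6J, the sum gave -0.61, with a pooled SD of 0.156 between libraries of a strain.

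Bin by bin, 115 of the 121 members had a lower fitted level in DBA/2J and 6 a higher one. The median log2 difference was -0.67, with a range from -1.81 to 0.26 and a median standard error of 0.259, against a median of -0.01 over all bins, of which 50.7% were negative. In the edgeR quasi-likelihood fit 32 members passed an adjusted p of 0.05 as lower in DBA/2J, beside 1.60% of all bins, and 0 as higher, beside 0.790% of all bins. At an unadjusted p under 0.05, 82 members differed in either direction, beside 10.1% of all bins. DESeq2 put 20 past the threshold, all lower, beside 1.34% of all bins in either direction. All 6 DBA/2J libraries were below all 5 C57BL/6J libraries in 33 members, beside 1.88% of all bins. Since this contrast chose the interval, nothing is read from these shares. The count was 19 without DBA/2J young 1, 21 without DBA/2J young 2 or without DBA/2J mid 3, and 28 without C57BL/6J young 2.

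**Figure D2:**
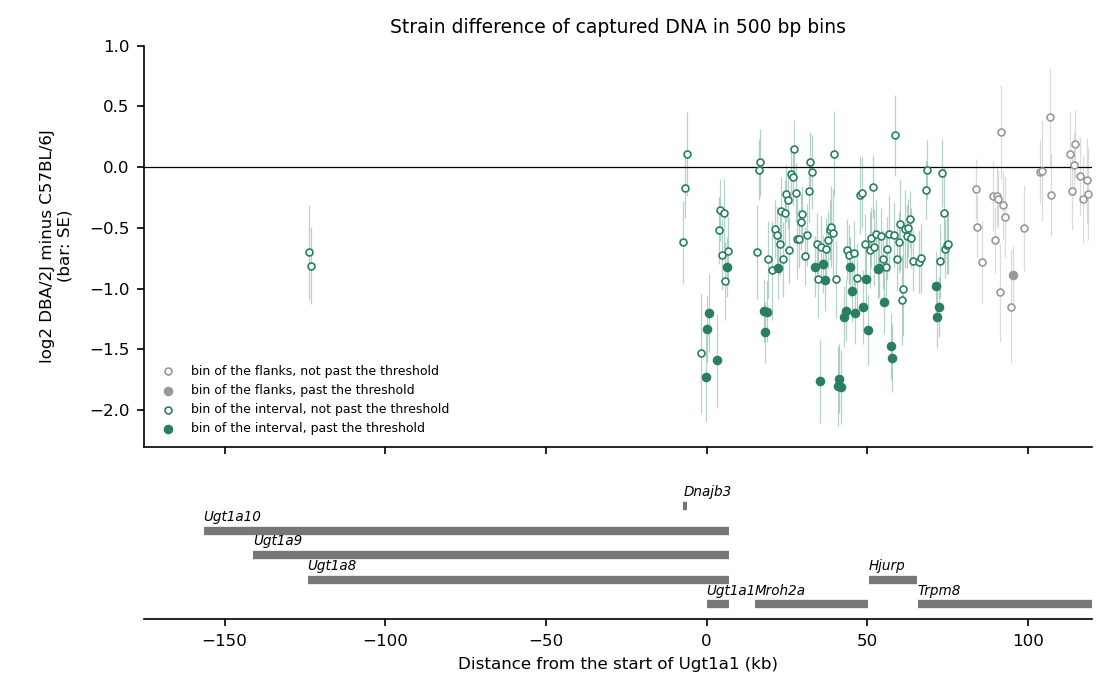
Fitted log2 difference, DBA/2J minus C57BL/6J, of each 500 bp bin with its standard error, against the distance from the start of Ugt1a1 in kb, with the gene bodies drawn below. Filled points passed an adjusted p of 0.05, and from Ugt1a1 onward nearly all points of the interval lie below 0, between -1.81 and 0.26.

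Ugt1a1, including the bins just before it, held 12 members. Their summed level was 16.3 CPM in the lowest, 27.2 in the highest and 21.9 ± 4.76 on average in DBA/2J (SD, n = 6), and 37.1, 47.3, 35.1, 35.4 and 30.2 CPM in C57BL/6J young 1, young 2, mid 1, old 1 and old 2. Every C57BL/6J sum lay above every DBA/2J sum, and the ratio of the means was 1.69, or 1.58 without C57BL/6J young 2. All 12 bins were lower in DBA/2J, with a median log2 difference of -0.88. Past the threshold were 5 of them, beside 1.60% of all bins. The median deposited score, a CpG-corrected fraction from 0 to 1, was 0.720 in DBA/2J and 0.770 in C57BL/6J.

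The bin over the Ugt1a1 start (88211501, 4 CpGs), which holds the upstream sequence printed above, had 0.261 CPM in the lowest DBA/2J library, a median of 0.934 and 1.79 in the highest. In C57BL/6J it had 1.95 and 3.16 CPM in the young, 3.15 in the mid and 2.10 and 2.34 in the old libraries. The strains did not overlap, and the log2 difference was -1.73 (SE 0.356). The next bin (88212001, 10 CpGs), the coding part of the first exon, had 0.784 CPM, a median of 2.10 and 2.81 CPM in DBA/2J. It had 4.59, 6.46, 3.84, 2.35 and 2.96 CPM in the C57BL/6J libraries in the same order as before. Here the old C57BL/6J library at 2.35 lay among the DBA/2J libraries, and the log2 difference was -1.33 (SE 0.273). With the third bin (88212501, -1.20, SE 0.323) these formed an unbroken run of 3 bins past the threshold, from 88211501 to 88213000. No run in the interval was longer, and runs as long lay in Mroh2a.

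The exons that Ugt1a1 shares with the whole cluster were uneven. The shared coding exon in bin 88215001 (5 CpGs) had 0.366 CPM in the lowest DBA/2J library, a median of 0.620 and a highest value of 1.16, against 2.36, 2.34, 2.88, 1.98 and 2.09 CPM in C57BL/6J. Every C57BL/6J library was above every DBA/2J library, 3.29 times higher by the means, with a log2 difference of -1.59 (SE 0.384). The bin with the last shared coding exon (88218001, 10 CpGs) had 2.49 to 5.36 CPM in DBA/2J with a median of 4.37, and 7.79, 7.28, 6.31, 6.68 and 5.66 CPM in C57BL/6J. The ranges did not touch there either (-0.82, SE 0.247). Between both, bin 88216001 (6 CpGs) had 2.17 to 3.29 CPM in DBA/2J and 2.84 to 4.03 in C57BL/6J, overlapped and was not past the threshold (-0.35, SE 0.254). Since these exons belong to every Ugt1a transcript, their values cannot be assigned to Ugt1a1 alone.

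The members upstream of Ugt1a1 were few. The Ugt1a8 first exon held 2 bins with a summed 0.587 to 4.22 CPM in DBA/2J and 2.61 to 6.18 CPM in C57BL/6J, which overlapped. Its bin next to the start (88088001, 7 CpGs) had a log2 difference of -0.70 (SE 0.392) and the next bin (88088501, 9 CpGs) of -0.81 (SE 0.314), about as large as the median of the interval but not past the threshold. The Dnajb3 gene body, with 41 CpGs in its densest bin, held 3 bins with summed levels of 4.53 to 9.64 CPM in DBA/2J and 5.77 to 8.64 CPM in C57BL/6J. The coding bin 88205001, whose sequence is printed above, had 2.09 to 4.88 CPM in DBA/2J and 2.97 to 4.39 in C57BL/6J (-0.17, SE 0.253). The bin at the Dnajb3 start (88205501) had 1.02 to 2.32 CPM in DBA/2J against 0.275 to 2.47 in C57BL/6J, the lowest being C57BL/6J young 2 (0.11, SE 0.344; -0.24 without that library). No bin of either stretch passed the threshold. The relative level of Dnajb3, as the median of its 3 bins, was 0.879 in DBA/2J and 1.09 in C57BL/6J. Its dense bins were at 1.37 and 1.36 (88205001) and at 0.624 and 0.541 (88205501).

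Mroh2a held 63 members, more than any other gene of the interval, and its summed level was 171 CPM in the lowest, 236 in the highest and 210 ± 25.1 on average in DBA/2J (SD, n = 6). The C57BL/6J sums were 284 and 396 in the young, 295 in the mid and 304 and 283 in the old libraries, 312 ± 47.4 on average (SD, n = 5). All C57BL/6J libraries again lay above all DBA/2J libraries, 1.49 times by the means and 1.39 times without C57BL/6J young 2. The median log2 difference of its bins was -0.67. Lower in DBA/2J past the threshold were 19 bins, beside 1.60% of all bins, and 20 showed no overlap between strains, beside 1.88%. By position, 9 of 39 bins that touch a coding exon and 7 of 20 intron bins were past the threshold. So were 3 of 4 bins of untranslated or noncoding exons. The strain contrast chose the interval, so nothing is read from these counts.

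**Figure D3:**
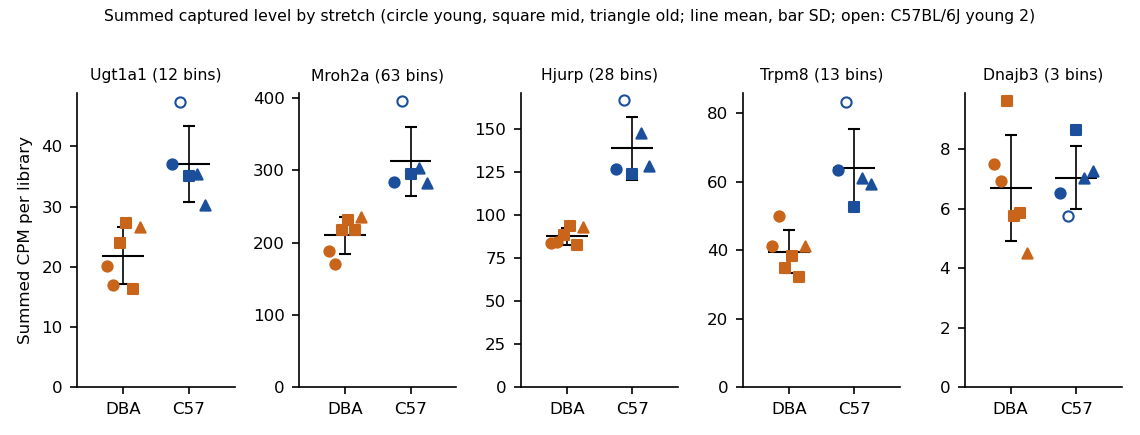
Summed CPM per library over the bins of each stretch, by strain, with young libraries as circles, mid as squares and old as triangles, the mean as a line and the SD as a bar. For Ugt1a1, Mroh2a, Hjurp and Trpm8 all C57BL/6J libraries (n = 5) lie above all DBA/2J libraries (n = 6), and the open symbol, C57BL/6J young 2, is the highest.

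The Mroh2a intron bin 88253001 (12 CpGs), the first of the Mroh2a sequences printed above, had 0.523 CPM in the lowest DBA/2J library, a median of 1.21 and a highest value of 2.46. The C57BL/6J libraries had 3.20, 6.32, 3.57, 4.45 and 4.43 CPM, all above DBA/2J. The log2 difference was -1.74 (SE 0.282), and the mean score was 0.487 in DBA/2J and 0.648 in C57BL/6J. Its neighbours on both sides were much alike, 88252501 at -1.80 (SE 0.332) and 88253501 at -1.81 (SE 0.305), the latter being the lowest value of the interval. Bin 88230001 (6 CpGs), which touches a coding exon and holds the second Mroh2a sequence, had 2.48 to 5.88 CPM in DBA/2J with a median of 4.55. It had 10.8, 13.3, 7.68, 9.89 and 9.97 CPM in C57BL/6J, with no overlap and a log2 difference of -1.36 (SE 0.248). A further bin with coding bases, 88247001 (4 CpGs), ran from 0.587 to 1.53 CPM in DBA/2J and from 1.67 to 5.08 in C57BL/6J (-1.76, SE 0.346), its highest value again in C57BL/6J young 2.

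Past the threshold were 19 of the 63 Mroh2a bins, so most were not. The bin nearest its start (88227501, 4 CpGs, 481 bp away) had 0.469 to 2.09 CPM in DBA/2J and 0.834 to 2.75 CPM in C57BL/6J, and the strains overlapped, although the log2 difference of -0.70 (SE 0.386) was close to the median of the gene. Bin 88239001 (9 CpGs), picked after its values were seen, had 4.99 to 8.51 CPM in DBA/2J, with a median of 6.76, and 6.12, 7.56, 7.13, 5.07 and 6.65 CPM in C57BL/6J. The strains overlapped fully there, at 0.15 (SE 0.234). Bins not past the threshold lay among bins with a difference, and called bins came in 18 runs of at most 3 bins, with 24 of the 32 touching another.

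Hjurp held 28 members, with a summed level of 82.9 to 94.0 CPM in DBA/2J, 87.9 ± 4.94 on average (SD, n = 6). The C57BL/6J sums were 127, 167, 124, 148 and 129 CPM. The strains did not overlap, with a ratio of 1.58, or 1.50 without C57BL/6J young 2. Past the threshold were 5 bins, beside 1.60% of all bins. The largest difference of a Hjurp bin, -1.57, was in bin 88269501. Bin 88269001 (8 CpGs), which touches a coding exon and holds the Hjurp sequence printed above, had 0.880 CPM in the lowest DBA/2J library, a median of 1.67 and a highest value of 2.21, against 4.31, 7.69, 3.15, 3.96 and 3.32 CPM in C57BL/6J (-1.47, SE 0.270). The most captured bin of the interval, 88266001 at a coding exon of Hjurp (16 CpGs), had 12.8 to 16.9 CPM in DBA/2J and 20.9, 17.3, 25.5, 24.0 and 24.3 CPM in C57BL/6J. It did not overlap but differed less, by -0.57 (SE 0.234), and C57BL/6J young 2 was here the lowest of its strain. At the end of the interval, 13 intron bins of Trpm8 summed to 32.3 to 49.9 CPM in DBA/2J. In C57BL/6J they summed to 63.4, 83.4, 52.7, 61.1 and 59.5 CPM, a ratio of 1.61 (1.49 without C57BL/6J young 2). Of these bins 3 were past the threshold, beside 1.60% of all bins.

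**Figure D4:**
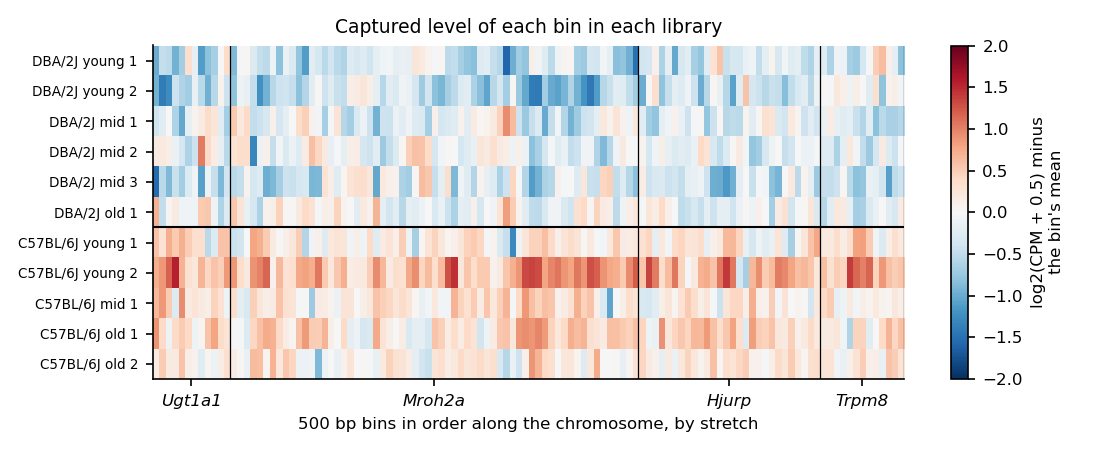
Heat map of log2(CPM + 0.5) of each bin minus that bin's mean over the 11 libraries, with bins in chromosome order on the x axis, libraries on the y axis and black lines between stretches and strains. The C57BL/6J libraries are mostly above the means of the bins, the DBA/2J libraries mostly below, and C57BL/6J young 2 is the reddest row.

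After the end of the interval the difference became smaller, though not steadily from bin to bin. Before Ugt1a1 too few bins were in the table to place where it began. The first members after the start of the interval, 88088001 and 88088501, were at -0.70 and -0.81, and the last bin of the table before it, 88022001, was at 0.12. The last members, 88286501 and 88287001, were at -0.64 and -0.63, and the first bins beyond the end, 88295501, 88296001 and 88297501, at -0.18, -0.49 and -0.78. In the 20 kb after the interval 13 bins had a median of -0.41, with 1 past the threshold, lower in DBA/2J (88307001, -0.89, SE 0.239). The 77 bins beyond that had a median of -0.02 and 0 past the threshold in edgeR. The 45 bins of the 250 kb before the interval had a median of 0.08, with 1 past the threshold, higher in DBA/2J (87793501, 1.19, SE 0.355).

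The called members were close to the others in CpG number and base composition. The 32 members past the threshold had a median of 6.5 CpGs, 49.5% GC and 6.60% repeat-masked bases, and the other 89 had 6.0 CpGs, 49.2% and 8.80%. Their median levels were 2.31 and 2.40 CPM in DBA/2J and 4.66 and 3.48 CPM in C57BL/6J. By CpG number, 5 of 23 bins with 3 or 4 CpGs and 11 of 43 with 5 or 6 were past the threshold. So were 11 of 35 with 7 to 9 and 5 of 20 with 10 to 41, beside 1.60% of all bins. None of the 121 bins had a second copy of at least 90% identity over 80% of its length elsewhere in the reference genome, and sequence differences between the strains were not analysed here. The correlation of directly neighbouring members over the 11 libraries had a median of 0.712 over 105 pairs, which share libraries and reads and are not independent.

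With age, no member passed the threshold. Old against young, 0 of 121 members passed the threshold in edgeR, beside 0.00236% of all bins. At an unadjusted p under 0.05 were 7, beside 5.18% of all bins. DESeq2 called 0, beside 0.000429% of all bins, and had 1 under 0.05, beside 1.81%. In edgeR the median log2 change was -0.01, from -0.83 to 1.03, with 64 bins negative and 57 positive. The median was 0.16 without C57BL/6J young 2 and -0.17, with 89 bins negative, without the only old DBA/2J library. The smallest p belonged to the Ugt1a1 intron bin 88217001. It had 1.06 and 0.915 CPM in the young, 3.05, 3.07 and 2.05 in the mid and 3.48 in the old DBA/2J libraries, and 1.39 and 3.16 in the young, 2.47 in the mid and 3.59 and 2.34 in the old C57BL/6J libraries. The young DBA/2J libraries were lowest and the C57BL/6J ages overlapped (0.92, SE 0.314, edgeR adjusted p = 0.804).

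Mid against young gave 0 called members in edgeR as well, beside 0.00300% of all bins. At an unadjusted p under 0.05 were 15, beside 5.01% of all bins. DESeq2 called 0, beside 0.000429% of all bins, and had 5 under 0.05, beside 1.71%. In edgeR the median was 0.13, with a range from -1.10 to 1.62. By stretch it was 0.24 over Ugt1a1, 0.24 over Mroh2a, 0.10 over Hjurp and -0.40 over Trpm8, and for old against young -0.06, 0.04, 0.07 and -0.26. The largest value, 1.62 (SE 0.479, edgeR adjusted p = 0.806), was in Mroh2a bin 88251001. Both males of the series are in the mid class, and the only mid C57BL/6J library is one of them. With the sex term, mid against young therefore rests on the 2 mid DBA/2J females against the young libraries, and among females alone the median was 0.17 with 12 bins at an unadjusted p under 0.05. In the strains fitted separately, old against young, the median was 0.25 in DBA/2J and -0.21 in C57BL/6J, with 0 called in each in edgeR, beside 0.0152% and 0% of all bins. At an unadjusted p under 0.05 were 24 and 7 of the 121 members, beside 8.23% and 5.85% of all bins.

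**Figure D5:**
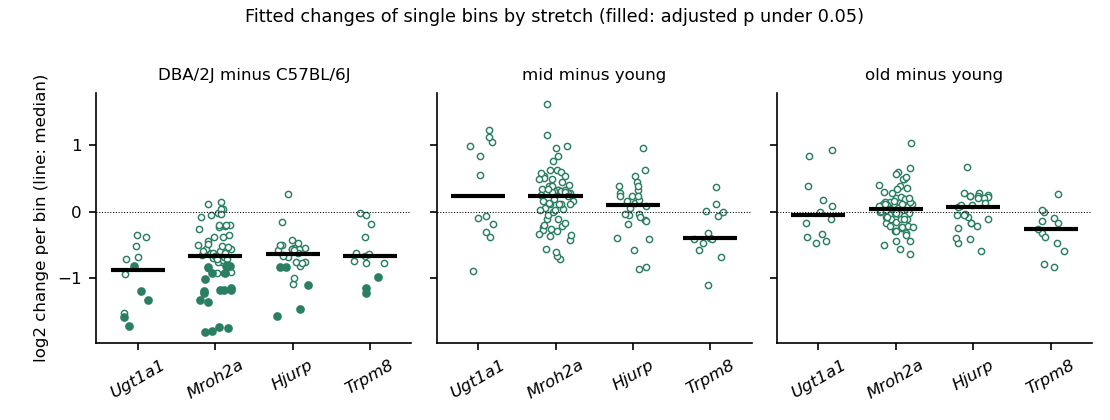
Fitted log2 change of each bin of Ugt1a1, Mroh2a, Hjurp and Trpm8 for DBA/2J minus C57BL/6J, mid minus young and old minus young, with the median of each stretch as a line and filled points for an adjusted p under 0.05. Filled points occur in the strain panel alone, and the age medians lie between -0.40 and 0.24.

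The ratio of the strains was also taken within each age class, as a description of 1 to 3 libraries of each strain. The interval summed to 339 CPM in young DBA/2J and 614 in young C57BL/6J (ratio 1.81, or 1.54 with C57BL/6J young 1 alone), to 377 and 518 in the mid libraries (1.37), and to 404 and 536 in the old (1.33). For Ugt1a1 the ratio was 2.27 in the young, 2.00 with C57BL/6J young 1 alone, 1.56 in the mid and 1.23 in the old libraries. For Mroh2a it was 1.88, 1.57 with that library alone, 1.33 and 1.25, for Hjurp 1.75, 1.51 with that library alone, 1.40 and 1.48, and for Trpm8 1.61, 1.39 with that library alone, 1.50 and 1.46. The ratio was thus largest in the young for the interval, Ugt1a1, Mroh2a and Hjurp with and without C57BL/6J young 2. For Hjurp without that library it was so by little (1.51 against 1.48 in the old). For Trpm8 the ratio was largest in the young with that library and smallest in the young without it. The test of the strain by age term, in log2 per 100 days, called 0 members in edgeR, beside 0.000858% of all bins. At an unadjusted p under 0.05 were 24 members, beside 8.46% of all bins, and in DESeq2 0 were called and 14 were under 0.05, beside 3.41%. The term was above 0 in 98 of 121 bins with a median of 0.09, and without C57BL/6J young 2 the median was 0.05 with 12 bins at an unadjusted p under 0.05.

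The smallest strain by age p was in the Ugt1a1 intron bin 88216501 (0.36 per 100 days, SE 0.102, edgeR adjusted p = 0.247), followed by the first exon bin 88212001 (0.35, SE 0.0993, adjusted p = 0.253). When only the bins with a mean of at least 20 reads were tested, 1 of 71 members passed, the Mroh2a bin 88237001 (0.317, SE 0.0712, edgeR adjusted p = 0.0462), beside 0.0306% of the 114421 bins tested there. The capture of dense bins differed between libraries inside DBA/2J: bins with more than 20 CpGs stood at 1.90 and 1.98 times the mean of all bins in its young libraries, at 1.46, 1.48 and 1.90 in the mid and at 1.48 in the old one, and their part in the age values was not tested by itself. With an offset for each library and CpG class 0 members were called and the strain by age median was 0.07.

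Short motifs were counted on both strands of the RefSeq promoters, 250 bases before to 50 after a start. The letters GTTAAT, the core of the binding site of the liver factor HNF1, were in 7.10% of 32851 promoters, with 2 matches for Ugt1a10, 1 each for Ugt1a9, Ugt1a6a and Ugt1a1, and 0 for Ugt1a8, Ugt1a7c, Ugt1a5, Ugt1a2, Mroh2a, Dnajb3, Hjurp and Trpm8. The letters GCGTG, the core bound by the Ah receptor and itself holding a CpG, were in 32.4% and matched once for Ugt1a8 and Ugt1a5. CpGs numbered 2 in the Ugt1a1 promoter, 0 in that of Mroh2a, 19 in that of Dnajb3 and 22 in that of Hjurp. These matches describe the letters only.

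In sums over whole genes, bins of the body and up to 5 kb before the start, 2.58% of 33793 genes were lower in DBA/2J, 1.11% higher, 0.0207% called old against young and 0.0178% mid against young. Of 28 genes for glucuronidation and the handling of bilirubin and heme, 15 could be tested, and 0 were lower and 3 higher in DBA/2J. These were Alad, a heme synthesis enzyme, with 52.3 ± 2.67 CPM in DBA/2J (SD, n = 6) against 18.3 ± 3.60 in C57BL/6J (log2 1.56, SE 0.112, edgeR adjusted p = 2.26e-12), Abcc2, the canalicular exporter of conjugated bilirubin (0.34, adjusted p = 0.0296), and Abcc3, its basolateral counterpart (0.30, adjusted p = 0.0342). Blvra, biliverdin reductase, was at 0.19 (adjusted p = 0.460). The list's median was 0.18 and that of all genes 0.00. Of 15 regulators of the cluster, among them Nfe2l2 (0.59, edgeR adjusted p = 0.0750) and Ppara (0.26, adjusted p = 0.168), 14 were tested and 0 called in edgeR, with a median of 0.16. None of either list was called with age.

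Of 14 neighbours within 1 Mb, 2 passed, Hjurp (-0.66, SE 0.0749) and Trpm8 (-0.39, SE 0.0745), both with bins in the interval that chose them. Their list had a median of -0.01, and Ngef, a neighbour outside the interval, was at 0.16. Of 32 genes of other detoxification families with repeated copies, 14 were tested and 2 were lower in DBA/2J. These were the cytochrome P450 gene Cyp2c39, with 0.496 ± 0.272 CPM in its only bin against 2.25 ± 0.750 (log2 -2.07, SE 0.429, edgeR adjusted p = 0.00164), and the glutathione transferase gene Gsta4 (-0.47, adjusted p = 0.0427). The list's median was -0.09. Similar copies in such families can share reads, and whether that touched these values was not tested, so they are uncertain.

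Marker genes of liver cell types were set beside the strain difference, as captured DNA and not expression. Of the hepatocyte list 8 of 10 were tested and 2, Alb and Apoa1, were higher in DBA/2J (log2 1.88 and 3.01). The list's sums were 44.3 to 96.3 CPM in DBA/2J and 55.4 to 68.5 in C57BL/6J. Both genes varied widely between libraries. Alb had 11.9 ± 6.42 CPM in DBA/2J (SD, n = 6) and 4.14 ± 1.93 in C57BL/6J (SD, n = 5). Apoa1 had 3.03 ± 2.43 and 0.517 ± 0.553 CPM. With age, 2 genes of this list were called mid against young in edgeR, beside 0.0178% of all genes, and 0 old against young. The lymphocyte list had 8 of 8 tested and 0 called in edgeR, with 92.0 to 108 and 96.4 to 111 CPM, and the Kupffer and myeloid list 4 of 6 and 0 called, with 46.8 to 59.3 and 46.5 to 66.2 CPM. The endothelial, stellate and bile duct list had 8 of 8 and 0 called, with 636 to 652 and 622 to 678 CPM. The part of cell composition in the strain values was not tested.

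The bins outside the interval whose log level over the 11 libraries was most like its sum were 5 on other chromosomes: in Nek11 (Pearson r = 0.975), Hdgfl3 (0.973), Gm7546 (0.970), Gm3455 (0.970) and Sspn (0.967). All were lower in DBA/2J, from 0.892 ± 0.216 against 1.99 ± 0.605 CPM in Gm7546 to 0 reads in every DBA/2J library in Gm3455. They were found by search over the whole table and share the libraries, so the correlations are a description only.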

How the data were processed

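Livers of DBA/2J and C57BL/6J mice were profiled by capture of methylated DNA and sequencing. Per the labels' protocols, DNA was sheared by ultrasound, enriched with a methyl-CpG-binding domain kit and read on Ion Proton chips. The submitters' processing notes name Trimmomatic 0.30, FastQC, SAMtools and edgeR. The aligner used is not given in the sources used here. The deposited counts hold, per the file headers, whole numbers of reads for each 500 bp bin made with MEDIPS, without normalization. The deposited relative methylation score is, per the file headers, a CpG-normalised fraction between 0 and 1. It is no measured share of methylated cytosines.

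Members were the bins overlapping the interval named in the report. The members, gene lists and tests were chosen with earlier results of these data known. Counts of all 466039 bins were scaled by TMM and fitted with edgeR 4.0.16 in R 4.3.3, by a quasi-likelihood fit over 11 libraries with terms for strain, sex and age class. Benjamini-Hochberg adjustment covered every bin of the table, and calls were made below 0.05. Age entered the strain by age term in units of 100 days. Genes were fitted the same way on summed bins. The scripts were tested on simulated data. DESeq2 1.42.0 and limma 3.58.1 (on the score) were alternatives, with size factors, a CpG offset, a filter of 20 reads, other sets of libraries and each library left out. Bins were placed with GENCODE M21, second copies were searched with BLAST 2.17.0, and sequence came from RefSeq GRCm38.p6.

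Total reads ranged from 6.89 to 8.54 M, and the median standard error of a strain difference was 0.315 over all bins. In pairs of replicates of one strain and age the chi-square of the counts per degree of freedom was 1.39 to 1.77, so all were kept as separate libraries. Bins named in the text were drawn from up to 15 past the threshold by smallest p in each comparison, and not all were named. They were also drawn from those nearest within 2 kb to the annotated starts, the most captured bin and the bin with most CpGs. Further bins of the shared exons, Mroh2a, Hjurp and the edges were added after their values were seen. Of the gene lists, up to 4 genes with the smallest p were named. No row without a position was counted, and sex chromosomes were not analysed here.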

Additional observations from a re-analysis of the deposited data

Results flagged for a closer look

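In 2 of 52 groups of libraries checked, 1 library lay far from the others of its strain, and chance alone gives such a gap in about 1 of 20 groups. Both were C57BL/6J young 2. Its summed level over the Mroh2a bins was 396 CPM, while the other 4 C57BL/6J libraries lay between 283 and 304 CPM. In the Hjurp bin 88269001 it had 7.69 CPM, and the others lay between 3.15 and 4.31 CPM. This library also captured CpG-dense bins less than the other 10, as given in the report. All C57BL/6J values of both measures lay above all DBA/2J values, and leaving out the highest C57BL/6J library cannot change that.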

How the results depend on the processing

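The strain difference of the interval kept its sign under every alternative run. The log2 difference of the sums lay between -0.52 and -0.64 when each library was left out, with -0.52 without C57BL/6J young 2, and was -0.60 with DESeq2 size factors and -0.62 with an offset per CpG class. The count of members lower in DBA/2J was less stable than the sums. It was 32 as reported, 43 with the offset per CpG class, 20 with DESeq2 (18 of them shared) and 7 with limma on the relative methylation score. Of all 466039 bins, these fits called 7448, 7718, 4657 and 4722 lower in DBA/2J. The count lay between 19 and 38 when each library was left out. In the young libraries alone, 2 against 2, it was 27, beside 3632 of all bins, with a median log2 difference of -0.89. In the old libraries alone, 1 against 2, the members' median log2 difference was weaker, -0.3 against -0.67, with 93 of 121 negative. The spread within C57BL/6J stands there for that of the lone DBA/2J library, so no count of calls is given for it. The counts of members called old against young and mid against young were 0 under all alternatives, leaving out each library included. For strain by age the count was 1 with the filter of 20 reads and 0 under all others and with each library left out. Among named bins the sign reversed in old libraries alone for the Ugt1a1 exon bin 88212001 (0.01), the Mroh2a bin 88227501 (0.62) and the Dnajb3 start bin 88205501 (-0.71). The last also reversed without C57BL/6J young 2 (-0.24), without DBA/2J young 1 (-0.06) and without DBA/2J young 2 (-0.02), and reached 0.49 without the old DBA/2J library. The cause was not tested. No paired analysis was possible because the labels give no replicate numbers and the numbers used here only name the libraries. Age changes of about 3 standard errors, such as 0.92 (SE 0.314) in bin 88217001, did not pass the adjusted threshold. The median bin had 15 reads. The part of depth, of the number of libraries and of the adjustment over all bins in this was not tested.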
